A study of Homo sapiens with 4 samples.

Results

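The 94 genes described here encode subunits of cullin-RING ubiquitin ligases or relatives of these subunits, and are 94 of the 13957 genes in the deposited table of MDA-MB-231 Fluc cells. They were chosen by symbol alone: FBXO, FBXL or FBXW and a number (F-box genes), KLHL, KBTBD or BTBD and a number (genes of BTB domain proteins), and CUL and a number (cullins). The families hold 30 FBXO, 14 FBXL, 7 FBXW, 21 KLHL, 6 KBTBD, 8 BTBD and 8 CUL genes, which makes 86 adaptor genes and 8 cullins. RNA was sequenced from 2 samples exposed to 50 μM cordycepin and from 2 samples given the vehicle DMSO, each for 2 h. MDA-MB-231 is an established line from a triple-negative breast tumour, the Fluc derivative carries an inserted luciferase gene, and both groups are this same derivative. The table gives 1 expression value per gene, the authors' mean over all 4 libraries as log2 CPM (counts scaled to the size of the library). Its columns on cordycepin against DMSO are the authors' own comparison and were not used, so all values below are levels across both groups together, with no SD, and no difference between cordycepin and DMSO is given.

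Cullin-RING ligases attach ubiquitin to proteins. A cullin is the scaffold: its C-terminal part holds a RING protein that recruits the ubiquitin-loaded enzyme, and its N-terminal part holds an adaptor that binds the substrate. F-box proteins join CUL1 through SKP1, whereas KLHL and KBTBD proteins bind CUL3 directly through their BTB domain. Some BTBD proteins also bind CUL3, but the symbol alone does not establish this. Most of these scaffolds are switched on when the small protein NEDD8 is joined to a conserved lysine in their C-terminal part.

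The coding sequence around a lysine found by a pattern search for this site is shown, so that the 8 cullins can be compared with each other. Each stretch has 24 bases and was read 5′ to 3′ on the coding strand of the canonical GENCODE transcript (GRCh38), with the codon of the lysine in capitals.
CUL1: gtgagaatcatgAAGatgaggaag
CUL2: gttcgtatcatgAAAgcacgaaaa
CUL3: gtgcggataatgAAAtctagaaag
CUL4A: gtcagaataatgAAGatgagaaag
CUL4B: gttcgaattatgAAGatgagaaag
CUL5: atacaaataatgAAAatgagaaag
CUL7: gtccgaatcctcAAGgcccatgga
CUL9: gttcgtattctcAAAgcccatggg
Each stretch lies within 1 coding exon, for example at chr7:148799284-148799307 on the plus strand for CUL1 and chrX:120530162-120530185 on the minus strand for CUL4B. The 24 bases of CUL4A matched CUL1 at 21 positions and those of CUL4B at 20. CUL5 matched CUL1 at 17 positions, CUL3 at 16 and CUL2 at 14. CUL7 and CUL9, which are much longer proteins with additional domains, matched CUL1 at 11 and 9 positions. Their stretches were located by the same pattern search, and a match is a description of the letters only. Whether NEDD8 is joined to the lysine found in CUL7 and CUL9 was not tested.

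The cell line was checked against marker genes. All 5 markers of this mesenchymal-like line were present, and VIM, CD44, AXL and CAV1 had a mean log2 CPM between 10.25 and 11.01. EGFR had 8.64. Of 6 luminal and epithelial markers, the oestrogen and progesterone receptor genes ESR1 and PGR were not among the rows analysed here, CDH1 and EPCAM each had a mean log2 CPM of 3.68 and GATA3 4.48. The keratin gene KRT8 had 9.11. The white blood cell marker PTPRC and the fibroblast marker DCN were not among the rows analysed here, and COL1A1 had 3.36. The median log2 CPM of all genes was 4.58. After division by gene length, KRT8 was at percentile 95.6 of all genes, GATA3 at 55.4, EPCAM at 49.3 and CDH1 at 26.9.

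To compare genes, the authors' mean log2 CPM was divided by gene length on the log scale, using the length that the table gives. The resulting level per kb is log2 CPM minus log2 of the length in kb. Over all 13957 genes the level per kb had a median of 2.43, with the middle 50% of genes between 0.94 and 3.88. The cullins lay high within this distribution and the adaptors lay low. The median level per kb of the 8 cullins was 3.60, or 12.2 CPM per kb, and 7 of the 8 were above the median of all genes. The median of the 86 adaptors was 1.80, or 3.47 CPM per kb, and 28 of them (32.6%) were above the median of all genes, compared with 50.0% of all genes. The adaptor median was therefore 1.81 lower than the cullin median on the log2 scale, a ratio of cullins to adaptors of 3.50. Of the 86 adaptors, 52 were below the lowest cullin, 7 were above the cullin median and 2 were above the highest cullin. Of all 13957 genes, 6141 were below the lowest cullin, 4081 above the cullin median and 1858 above the highest cullin. Without division by length, the highest adaptor had a log2 CPM of 7.29 and the highest cullin 7.87. Genes are not replicates and the values have no error, so no test was made of the difference between the medians.

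**Figure D1:**
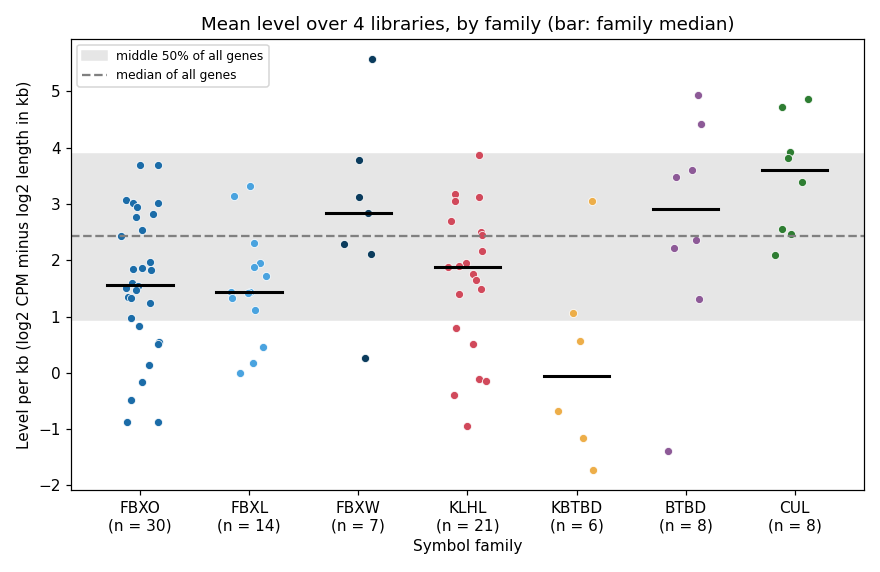
Level per kb (authors' mean log2 CPM minus log2 of gene length in kb) of the 94 genes, grouped by symbol family, with 1 point per gene, a bar at each family median and a grey band for the middle 50% of all 13957 genes. The cullins have the highest family median, at 3.60, and the KBTBD genes the lowest, at -0.06.

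The cullins themselves ranged from 2.10 to 4.86 in level per kb. CUL4B, which like CUL4A is a scaffold for DDB1-dependent ligases, had the highest level per kb, at 4.86 (log2 CPM 7.87). It was also first of the cullins in log2 CPM and per kb of coding sequence, at 6.45. Per kb of its longest annotated transcript in GENCODE it had 3.28, below CUL1, CUL4A, CUL2, CUL5 and CUL3. The length given for CUL4B was 8079 bases, against 33815 for all its annotated exons in GENCODE. That transcript may therefore include exons in which reads were not counted, which was not tested. Per kb of exon, CUL4B was followed by CUL1, the scaffold for F-box proteins, at 4.72. CUL4A had 3.92, and CUL2, the scaffold of the ligase that contains the von Hippel-Lindau protein, had 3.82. CUL5, which works with SOCS box proteins, had 3.39. CUL3, the partner of the KLHL and KBTBD proteins, was sixth, with a level per kb of 2.55. The lowest levels per kb were those of CUL7, at 2.47, and CUL9, at 2.10. In mean log2 CPM, CUL1 had 6.78 and CUL3 had 6.08, so that part of the distance between these scaffolds in level per kb came from the gene lengths of 4152 and 11505 bases. Without replicate values it cannot be said whether neighbours in this order, such as CUL3 and CUL7, differ.

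**Figure D2:**
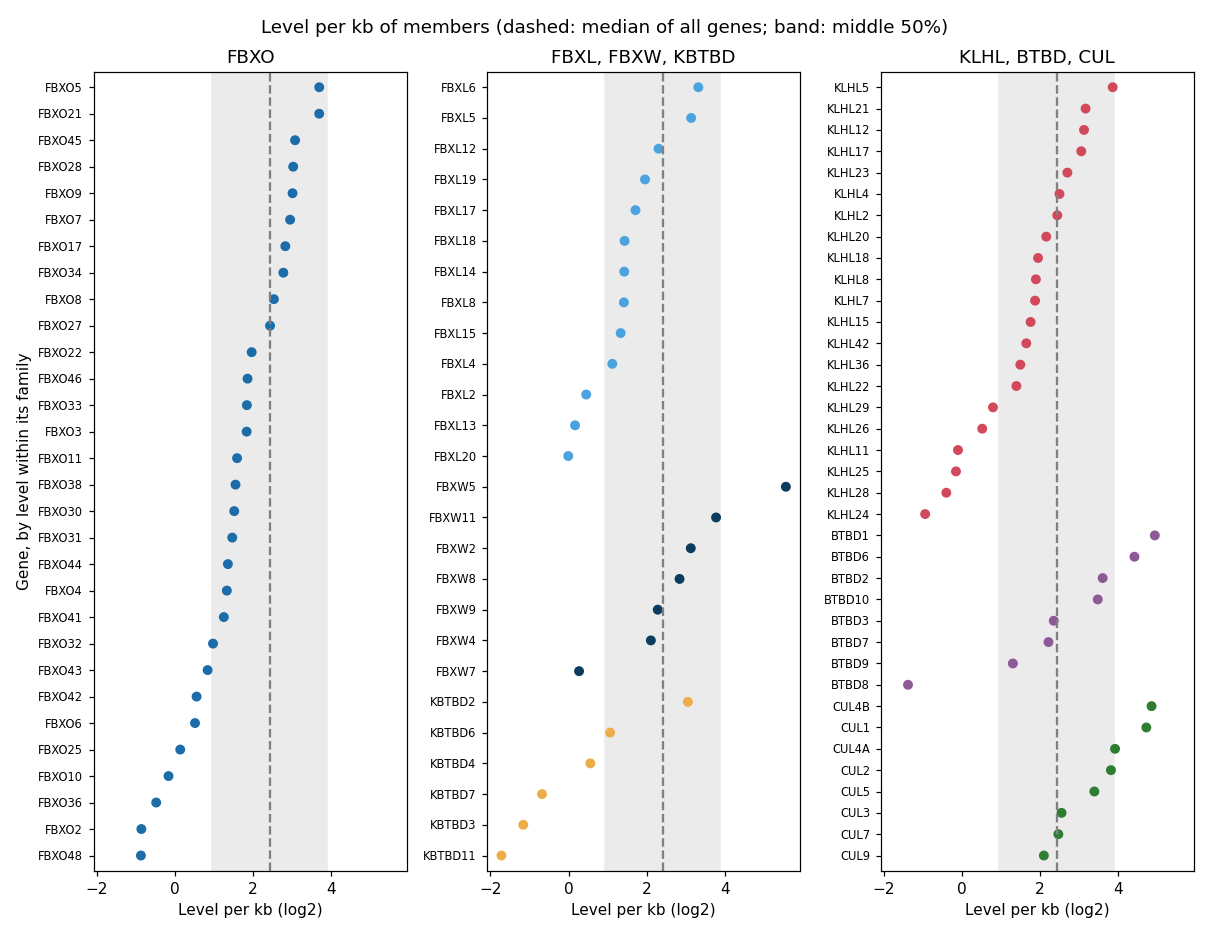
Level per kb of 93 of the 94 genes, ordered within each family, with a dashed line at the median of all genes (2.43) and a grey band for the middle 50%. FBXW5 and BTBD1 lie to the right of the highest cullin, CUL4B, and KBTBD11 has the lowest value, at -1.72.

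FBXO genes, whose products carry an F-box and no leucine-rich or WD40 repeats, had a median level per kb of 1.57. Of the 30, 10 were above the median of all genes, 8 were in the lowest 25% and 0 were in the highest 25%. FBXO5, which encodes the inhibitor EMI1 of the anaphase-promoting complex, and FBXO21 both had 3.69. FBXO45, whose product acts with an atypical RING protein, had 3.07, and FBXO28 had 3.02. FBXO11, whose product targets the repressor BCL6 in lymphocytes, lay nearest the family median, at 1.59. At the lower end, FBXO36 had -0.48, FBXO2, a receptor for N-glycosylated proteins, had -0.86, and FBXO48 had -0.87. Mean log2 CPM across the family ran from 0.80 for FBXO2 to 6.49 for FBXO21.

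FBXL genes encode F-box proteins with leucine-rich repeats. Their range was narrower than that of the FBXO genes and lay within it, with a median level per kb of 1.43, and 2 of 14 were above the median of all genes. These were FBXL6, at 3.33, and FBXL5, at 3.14, the latter encoding the iron-sensing adaptor that targets iron regulatory protein IRP2. FBXL12 had 2.31 and FBXL19 had 1.96. FBXL14, a regulator of Snail proteins, was nearest the family median, at 1.43. The lowest were FBXL2 (0.45), FBXL13 (0.17) and FBXL20 (-0.01). In log2 CPM FBXL20 had 3.46, above FBXL2 at 3.39 and FBXL13 at 2.17. The last place of FBXL20, with a length of 11053 bases, therefore depends on the length used.

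FBXW genes encode F-box proteins with WD40 repeats and had a median level per kb of 2.84, with 4 of 7 above the median of all genes. FBXW5 had the highest level per kb of all 94 genes, at 5.57 (47.4 CPM per kb), at percentile 91.9 of all genes. Without division by length CUL4B was above FBXW5, with a log2 CPM of 7.87 against 7.29. FBXW11, one of the β-TrCP genes whose products target β-catenin and IκB, had 3.78. FBXW2 had 3.13 and FBXW8, which pairs with CUL7, had 2.84. FBXW9 had 2.29 and FBXW4 had 2.11. FBXW7, the adaptor for cyclin E, MYC and Notch, had the lowest level per kb of this family, at 0.27 (1.21 CPM per kb), at percentile 16.5. Before division by length, FBXW5 had a mean log2 CPM of 7.29 and FBXW7 had 3.73, while FBXW9 was lowest of the family, at 3.36. The lengths of FBXW5 and FBXW7 were 3294 and 10979 bases, so their distance in level per kb includes a part from length.

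Among the BTB domain genes, the 21 KLHL genes, whose products carry kelch repeats, had a median level per kb of 1.87. Of these, 7 were above the median of all genes, 6 were in the lowest 25% and 0 were in the highest 25%. KLHL5 had 3.86, KLHL21, whose product acts on the chromosomal passenger complex in mitosis, had 3.17, KLHL12, which promotes the ubiquitination of the coat protein SEC31, had 3.13, and KLHL17 had 3.06. KLHL7 lay at the family median, at 1.87. KLHL25 had -0.15, KLHL28 had -0.40 and KLHL24, whose gain-of-function variants are known to cause skin fragility, had -0.94. Per kb of exon, only KLHL5 was above the cullin median. The lowest cullin was above 13 of the 21, and above 6141 of all 13957 genes. KLHL5 was also first of the family in log2 CPM and per kb of coding sequence. Per kb of the longest transcript, KLHL5 had 3.28 and KLHL17 had 3.46, so its first place did not hold there. The length given for KLHL5 was 5144 bases, against 9168 for all its annotated exons in GENCODE. Its longest transcript may include exons in which reads were not counted.

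KBTBD genes had the lowest median level per kb, at -0.06 (0.96 CPM per kb), and 4 of 6 were in the lowest 25% of all genes. KBTBD2, which controls the PI3K regulatory subunit p85α, stood apart within this family at 3.06. KBTBD6, part of the CUL3 ligase for the RAC1 activator TIAM1, had 1.07, and its partner KBTBD7 had -0.68. KBTBD4 had 0.56, KBTBD3 had -1.16 and KBTBD11 had -1.72, the lowest value of the 94 genes. The mean log2 CPM of KBTBD11 was 1.07, close to the lowest value in the table, 0.56.

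The 8 BTBD genes had a median level per kb of 2.92 and spanned the widest range of the adaptor families. BTBD1, at 4.94, was above the highest cullin, although per kb of coding sequence it had 6.43 and CUL4B had 6.45. BTBD6 followed at 4.42. BTBD2 had 3.60 and BTBD10 had 3.48. BTBD3 had 2.35, BTBD7 had 2.22 and BTBD9, associated with restless legs syndrome, had 1.31. BTBD8 was lowest at -1.38, with a length of 8342 bases. It was also the lowest of the 8 in mean log2 CPM, at 1.68, and per kb of coding sequence, at -0.75.

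Genes were also compared in pairs from a fixed list, and a shared role of the products was not established for every pair. In level per kb, CUL4B was above CUL4A, with values of 4.86 and 3.92, and 73.9% of their aligned coding bases were identical. The order held in log2 CPM and per kb of coding sequence. It turned over per kb of the longest transcript, with 3.28 for CUL4B and 4.35 for CUL4A. The transcript used for CUL4B may include exons in which reads were not counted. The β-TrCP gene FBXW11 had 3.78 and the other β-TrCP gene, BTRC, had 1.81, with 75.1% identity. BTBD1 had 4.94 and BTBD2 had 3.60 (70.7% identity). CUL7 and CUL9, which lie 128238 bases apart on chromosome 6, had 2.47 and 2.10 (73.3% identity). CUL9 was above CUL7 under the other 3 measures, for example with a log2 CPM of 5.71 against 5.08. The remaining pairs compared had lower identity. The identity that unrelated coding sequences would give in such alignments was not computed, so these values do not show relatedness. KLHL12 had 3.13 and KLHL20 2.16 (54.9% identity), FBXL19 had 1.96 and FBXL18 1.44 (56.1%), and FBXO3 had 1.83 and FBXO10 -0.17 (62.0%). FBXL18 was above FBXL19 in log2 CPM, with 4.72 against 4.08, and per kb of coding sequence, with 3.62 against 3.06.

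Some members neighbour each other on a chromosome. Those within 200000 bases of each other were examined after their values were seen. KBTBD6 (chr13:41127569-41132802) and KBTBD7 (chr13:41189834-41194569) are on the minus strand, are each annotated with 1 exon and are 91.8% identical over their aligned coding bases. The level per kb of KBTBD6 was 1.75 higher than that of KBTBD7 on the log2 scale. How reads that map to both genes were counted is not given in the sources used here, so the split between them is uncertain. FBXO2, FBXO44 and FBXO6, F-box genes of the group with an FBA domain, adjoin each other on chromosome 1 and had -0.86, 1.35 and 0.51. The spans of FBXO2 and FBXO44 overlap by 1411 bases on opposite strands. FBXO17 and FBXO27, of the same group, lie 14971 bases apart on chromosome 19 and had 2.82 and 2.43. FBXW8 and FBXO21 on chromosome 12 had 2.84 and 3.69.

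Other genes of the pathway were taken from a list of 34 core components, of which 33 were in the table and CAND2 was not among the rows analysed here. Their median level per kb was 3.72, near the cullin median of 3.60, and 28 of the 33 were above the median of all genes. The elongin gene ELOB, whose product links CUL2 and CUL5 to their adaptors, was highest, at 6.48, and UBE2M, the NEDD8-conjugating enzyme used by most cullins, had 6.08. UBE2F, the NEDD8-conjugating enzyme that acts on CUL5, had 1.44. SKP1, which connects F-box proteins to CUL1, had 3.77, the RING subunit gene RBX1 had 3.80 and the other RING gene, RNF7, had 3.72. CAND1, which exchanges adaptors on cullins, had 3.31 and NEDD8 had 3.94. All 9 genes of the COP9 signalosome, which removes NEDD8, were above the median of all genes, with COPS6 highest at 5.73 and COPS7B lowest at 2.64. The 5 DCUN1D genes, which assist NEDD8 transfer, had a median of 1.97, and DCUN1D3 was the lowest of the whole list, at 0.18.

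The symbol rule leaves out adaptors with other names, and 12 of these were listed and found in the table. Their median level per kb was 2.91, with 8 of 12 above the median of all genes. RHOBTB3 had 6.46, above each of the 94 genes chosen by symbol. KEAP1, the adaptor for NRF2, had 4.81 and ENC1 had 4.79. SKP2, the F-box adaptor for the cell cycle inhibitor p27, had 4.15. RHOBTB1 was the lowest of these 12, at -0.08, and RHOBTB2 had 0.85. This list was chosen for well-studied genes, so its median is not a sample of all such adaptors.

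**Figure D3:**
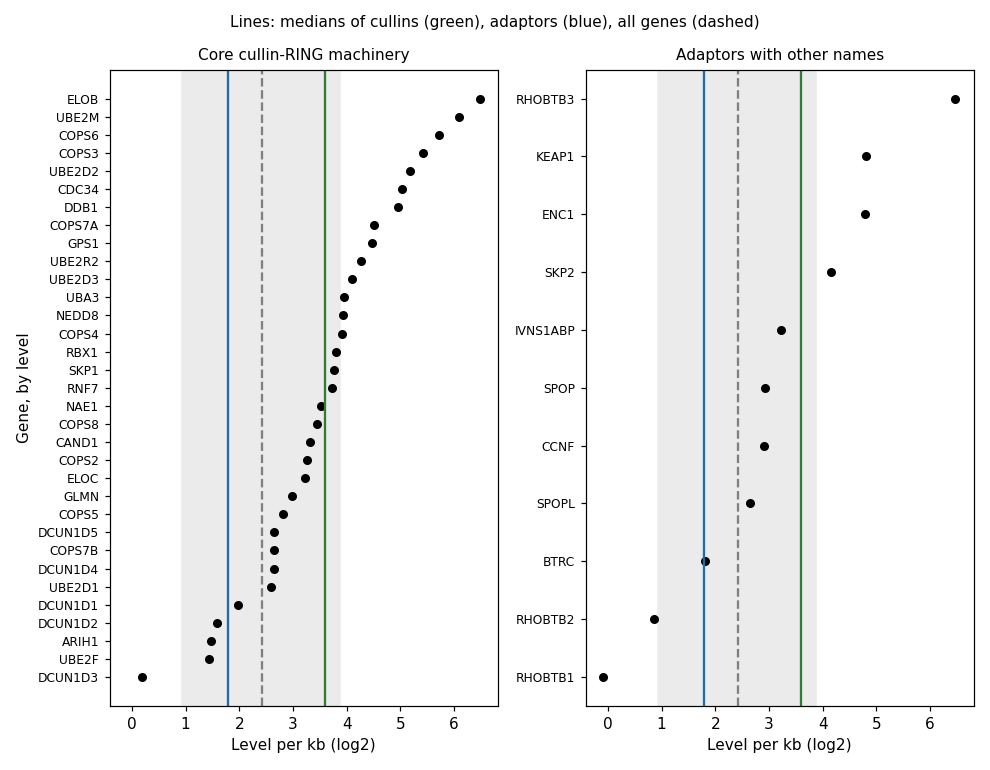
Level per kb of the 33 core cullin-RING genes (left) and 11 of the 12 adaptors with other names (right), 1 point per gene, with vertical lines at the medians of the cullins (green, 3.60), the 86 adaptors (blue, 1.80) and all genes (dashed, 2.43). The core genes run from DCUN1D3 at 0.18 to ELOB at 6.48, and most lie to the right of the adaptor median.

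Gene structure also differed between scaffolds and adaptors. The canonical transcripts of the cullins had a median of 20.5 exons, between 16 for CUL3 and 41 for CUL9. Those of the adaptors had a median of 8. The coding sequence of the cullins had a median of 2334 bases, compared with 1717.5 for the adaptors and 1428 for all genes with one. The length in the table, which includes untranslated exons, was 7187.5 bases at the median for cullins, 5816.5 for adaptors and 4839 for all genes. The ratio of this length to the coding sequence varied from 1.20 for CUL7 to 12.3 for FBXO48. The choice between these lengths therefore changes the value of some genes far more than others. This length equalled the merged exon length of GENCODE for 74 of the 94 genes. It was shorter for some others, such as CUL4B, with 8079 against 33815 bases, and CUL2, with 5269 against 14494. On the level per kb of coding sequence, the adaptor median was still below the cullin median, by 1.37 on the log2 scale. With the longest annotated transcript as the length, it was lower by 1.17.

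**Figure D4:**
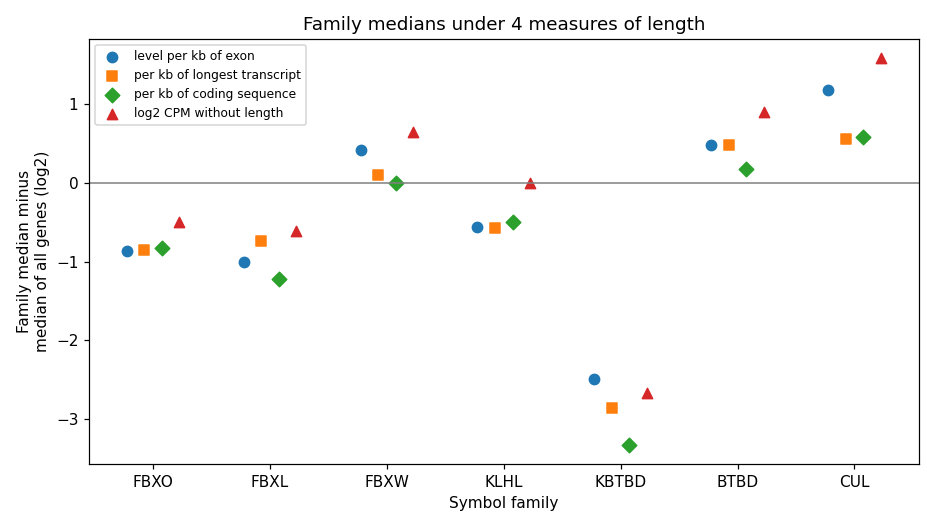
Median of each family minus the median of all genes, on the log2 scale, with levels per kb of exon, per kb of the longest transcript, per kb of coding sequence, and as log2 CPM without division by length. The CUL medians lie above 0 and the FBXO, FBXL and KBTBD medians below 0 under all 4 measures, while the KLHL median moves from -0.56 per kb of exon to -0.01 without division by length.

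Some levels may depend on how reads in overlapping exons were assigned. In GENCODE, 14 of the 94 genes share more than 10% of their exon bases with a gene on the opposite strand. For FBXO6 this was 50.5%, shared with MAD2L2. KBTBD4 shared 38.8% with PTPMT1, FBXL6 31.7% with SLC52A2 and FBXO11 31.5% with MSH6. These shares are of all annotated exons in GENCODE, which for FBXO11 held 12759 bases, against 7779 in the length given. Whether the shared bases were among those counted is therefore not known for FBXO11. The libraries were stranded, but whether strand was used in counting is not given in the sources used here. A further 6 genes share over 10% with an annotated gene on the same strand, among them FBXO10 (47.7%) and KLHL11 (39.6%), whose levels per kb were -0.17 and -0.10. The part of these overlaps in the levels was not tested.

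GENCODE annotates 129 genes with symbols that follow the same rule, and 94 of them (72.9%) were in the table under that symbol. All 8 cullins were among them, as were 30 of 36 FBXO, 14 of 17 FBXL and 7 of 10 FBXW genes. For comparison, 57.9% of all protein-coding genes of GENCODE had a row. The KLHL family was the least complete, with 21 of 37 genes (56.8%), a share close to that of all protein-coding genes. The other 16 KLHL genes were not analysed here. They include KLHL40 and KLHL41, which are known from skeletal muscle, KLHL3, which acts with CUL3 in the kidney, and KLHL6, known from B cells. KLHL9 and KLHL13 are also among the 16, and why these genes lack a row was not tested. FBXW10B has a row under the symbol CDRT1 and was not counted as a member. The 94 genes are spread over 21 chromosomes, and all are annotated as protein coding.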

How the data were processed

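Per the labels, the libraries were stranded and depleted of ribosomal RNA. The authors sequenced paired-end reads, used GRCh38.p13 for mapping and rsubread for counting, as their methods state. The submitters' processing notes name hg38 with TopHat, HTSeq, DESeq and Cufflinks instead, and the 2 accounts were not reconciled. The deposited table gives mean expression per gene over all libraries as log2 CPM, and a gene length. How the authors filtered low counts is not given in the sources used here. The table's other value columns hold the authors' comparison of cordycepin with DMSO (fold change, F statistic, p-value, adjusted p-value) and were not used. It has 0 columns of values per sample, so library depths are unknown, and no SD, interval or test between groups was computed.

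Level per kb was log2 CPM minus log2 of length in kb. Genes were matched by ID to GENCODE release 44 (same build), which held 13922 (99.7%) of them. For 74 of the 94 members the table's length equalled the merged exon length, and for 83 start and end were equal. Coding identity was taken from global alignments of canonical coding sequences. Named were all cullins and, in each other family, the 4 highest, the 3 lowest and the gene nearest the median (all genes in families of up to 7). Other genes were named after their values were seen, for overlap, position or extremes. Some results for single genes are left out here. Members and lists were chosen with earlier results of these data known. A check on simulated data covered the median level per kb of randomly drawn genes given a known change, and not the family medians reported here. Alternatives were other length measures, a minimum expression and other sets of cullins or adaptors. Python 3.11.15, pandas 2.3.3, numpy 2.4.6, scipy 1.17.1, matplotlib 3.10.9 and Biopython 1.88 were used.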

Additional observations from a re-analysis of the deposited data

How the results depend on the processing

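No paired analysis was possible because the table gives each gene as a mean of the 4 libraries. Replicates therefore could not be left out, and other normalizations, filters and count models of the cordycepin comparison were not run. The adaptor median stayed below the cullin median under all 7 alternatives, with a difference between -2.07 and -1.17 on the log2 scale. Keeping only genes above the lowest 25% of log2 CPM, which removes low genes from the reference and from the families, moved the FBXO median relative to all genes from -0.86 to -1.21 and turned the FBXW median from 0.41 to -0.22. Under the same filter the share of adaptors above the median of all genes fell from 32.6% to 22.4%, and without division by length it was 44.2%. Relative to all genes, over 4 alternatives each, the CUL median lay between 0.55 and 1.58 (1.17 in the report), BTBD between 0.18 and 0.90 (0.48), FBXW between -0.22 and 0.65, KLHL between -1.004 and -0.01 (-0.56), FBXO between -1.21 and -0.50, FBXL between -1.34 and -0.62 and KBTBD between -3.32 and -0.998 (-2.49). Of all these values the FBXW median under the filter was the one that changed sign. There is no replicate error against which to judge these moves. Depth limits on single genes are unknown.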

Other observations

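KLHL9, a CUL3 adaptor that acts in mitosis and the close relative of KLHL13, is annotated at chr9:21329665-21335404 (GRCh38) and was not among the rows analysed here. Within 1000000 bases of it on either side, a window chosen after this was seen, GENCODE annotates 23 protein-coding genes, of which 16 are interferon genes. Of the 23, FOCAD and MLLT3 had a row. The 5 genes without a row that are not interferon genes were HACD4, KLHL9, MTAP, CDKN2A and CDKN2B. The reason was not tested.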
